A study of Mus musculus with 2 samples.

Results

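The glutathione S-transferase (GST) genes *Gsta1*, *Gsta2*, *Gsta3*, *Gsta4*, *Gstm1*, *Gstm2*, *Gstm3*, *Gstp1* and *Gstt1*, together with *Nqo1*, were followed through hepatocyte zones and cell types of the mouse liver with metabolic dysfunction-associated steatohepatitis (MASH). These 10 genes were taken by symbol from the 32285 genes of the count tables, and all 10 were found. Single-nucleus RNA-seq (snRNA-seq) had been run on livers of male C57BL6/J mice that received a MASH diet for 5 months from an age of 10 to 12 weeks. The diet supplied 40% of its energy as fat and 20% as fructose, and held 2% cholesterol. There was 1 library of *Themis* flox/flox liver (Flox-labelled) and 1 of *Themis* Alb-Cre liver (HKO-labelled), in which the albumin promoter drives Cre in hepatocytes. Tissue of several mice was pooled for each genotype, and nuclei were sorted before 10x 3′ library preparation. With 1 library per genotype, genotype and library cannot be told apart and no test between them was possible, so ratios are given with counting intervals and no p-values.

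GSTs join the tripeptide glutathione to electrophilic compounds, such as drug metabolites, aflatoxin epoxides and products of lipid peroxidation, which are then exported from the cell. NQO1 reduces quinones to hydroquinones, and its gene is a standard readout of NRF2, the transcription factor released from KEAP1 under oxidative or electrophilic stress. NRF2 acts at antioxidant response elements, and the xenobiotic receptors AhR, CAR and PXR also induce some GST genes in the liver.

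The alpha-class genes *Gsta4* (chr9:78182774-78209349), *Gsta1* (chr9:78230656-78242684) and *Gsta2* (chr9:78331018-78355788, minus strand) lie in 1 cluster, whereas *Gsta3* lies alone at chr1:21240589-21265661. The mu-class genes *Gstm3* (chr3:107963696-107969283), *Gstm2* (chr3:107981702-107986453) and *Gstm1* (chr3:108012255-108017973) form a second cluster on the minus strand. *Gstp1* is at chr19:4035407-4037985, *Gstt1* at chr10:75783813-75798584 and *Nqo1* at chr8:107388225-107403206, all on the minus strand (GENCODE gene models on GRCm38, each spanning all exons and introns). *Gsta1* and *Gsta2* were 97.9% identical over their longest reading frames. Of the 90-base windows in the last 500 transcript bases of *Gsta1*, 77.9% also occurred in *Gsta2* or Gm3776, and 68.1% of those of *Gstp1* occurred in *Gstp2* or a *Gstp* pseudogene. For *Gsta2* this share was 10.5%, and for the other 7 genes it was 0%. Reads of such windows cannot be given to a single gene, so the counts of *Gsta1*, *Gsta2* and *Gstp1* are uncertain.

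Promoter windows of 4 members are shown because these members carry the contrasts described below: the near-identical pair *Gsta1* and *Gsta2*, the most abundant member *Gsta3*, and *Gstp1*, which went the other way. Each window runs from 250 bases before the RefSeq transcription start to 50 bases after it, 5′ to 3′ on the gene's strand (GRCm38.p6). They are chr9:78230419-78230718 for *Gsta1*, chr9:78347096-78347395 (minus strand) for *Gsta2*, chr1:21240335-21240634 for *Gsta3* and chr19:4037863-4038162 (minus strand) for *Gstp1*. Capitals mark the AhR core GCGTG in *Gsta1* and *Gsta2*, the antioxidant response element core TGACNNNGC in *Gsta3*, and the AP-1-like TGANTCAGC in *Gstp1*.
Gsta1: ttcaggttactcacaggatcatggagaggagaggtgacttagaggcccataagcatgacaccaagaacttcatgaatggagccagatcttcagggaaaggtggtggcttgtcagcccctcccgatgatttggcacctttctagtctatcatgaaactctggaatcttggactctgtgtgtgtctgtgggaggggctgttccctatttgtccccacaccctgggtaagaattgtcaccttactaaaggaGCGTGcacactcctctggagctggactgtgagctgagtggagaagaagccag
Gsta2: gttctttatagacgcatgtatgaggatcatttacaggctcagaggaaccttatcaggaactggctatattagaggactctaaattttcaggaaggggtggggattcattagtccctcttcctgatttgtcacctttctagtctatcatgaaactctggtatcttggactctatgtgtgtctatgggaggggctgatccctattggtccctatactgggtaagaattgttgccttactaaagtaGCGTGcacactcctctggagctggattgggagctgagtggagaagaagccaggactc
Gsta3: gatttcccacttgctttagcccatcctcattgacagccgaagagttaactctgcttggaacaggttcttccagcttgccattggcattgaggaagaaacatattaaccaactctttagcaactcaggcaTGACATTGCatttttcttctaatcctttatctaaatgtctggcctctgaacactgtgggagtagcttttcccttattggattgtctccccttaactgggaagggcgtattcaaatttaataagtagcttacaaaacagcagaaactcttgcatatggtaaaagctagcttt
Gstp1: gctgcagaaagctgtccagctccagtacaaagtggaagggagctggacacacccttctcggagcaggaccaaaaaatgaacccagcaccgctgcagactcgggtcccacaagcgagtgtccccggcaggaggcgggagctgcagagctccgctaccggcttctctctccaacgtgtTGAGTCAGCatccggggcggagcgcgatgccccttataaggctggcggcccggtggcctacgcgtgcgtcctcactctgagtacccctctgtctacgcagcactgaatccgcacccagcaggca
The *Gsta1* and *Gsta2* windows were 79.3% identical (238 of 300 bases), and GCGTG starts 2 bases before the transcription start of *Gsta1* and 7 before that of *Gsta2*. Both strands were searched in the 9 members with an entry; *Gsta4* had none. TGACNNNGC was present in 1 of 9 members (*Gsta3*, starting 121 bases before the start site) and in 12.4% of all 32851 windows. TGANTCAGC was present in *Gstp1* alone, 74 bases before the start, against 1.19% of all windows, and some sequences match both of these patterns. GCGTG was present in 4 of 9 members (*Gsta1*, *Gsta2*, *Gstm1* and *Gstp1*) and in 32.4% of all windows. These matches describe letters only and do not show binding. Sequence outside these windows was not searched, so a window without a match does not show that a gene lacks the element.

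Hepatocytes were nuclei in which 14 hepatocyte markers made up at least 0.5% of unique molecular identifiers (UMIs) without a second type's markers. After filtering they numbered 5850 in the Flox-labelled library and 4511 in the HKO-labelled one, with median depths of 7445.5 and 5815 UMIs. The libraries shared 25 barcodes among the nuclei kept. In hepatocytes, the summed markers of cholangiocytes stood at 23.5 and 45.6 CPM (UMIs of a gene among all UMIs of the summed nuclei, scaled to 1000000), and those of hepatic stellate cells (HSCs), endothelial cells and macrophages between 29.1 and 38.0 CPM in either library. Their own cell types held 3979 to 15357 CPM of these markers. The same lists set the cell types, so these levels follow in part from the rule and are no separate check of purity. *Themis* was not lower in hepatocytes of the HKO-labelled library, with 163 CPM in the Flox-labelled library and 244 CPM in the HKO-labelled one. Counts of 3′ ends do not show whether the part of the gene to be deleted was present, and the libraries are therefore named by their labels throughout.

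*Gsta3*, the main constitutive alpha-class enzyme of mouse liver, was the most abundant member. It reached 669.6 CPM (95% interval 662 to 677) in hepatocytes of the Flox-labelled library and 855 CPM (844 to 866) in those of the HKO-labelled library (ratio 1.28, 1.26 to 1.30). *Gsta4*, whose enzyme acts on the lipid peroxidation product 4-hydroxynonenal, had 123 UMIs (2.66 CPM) and 105 UMIs (3.80 CPM), with a ratio of 1.43 (1.09 to 1.87). Neither passed 1.5-fold, the size used here to call a gene higher or lower. A UMI counts 1 captured 3′ end, so levels were not divided by gene length.

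*Gsta1* and *Gsta2* encode the inducible alpha-class enzymes of mouse liver. *Gsta1* had 48 UMIs (1.04 CPM) in the Flox-labelled library and 85 UMIs (3.08 CPM) in the HKO-labelled one (ratio 2.97, 2.06 to 4.32). *Gsta2* had 88 UMIs (1.90 CPM) and 137 UMIs (4.96 CPM), with a ratio of 2.61 (1.98 to 3.45). Both were higher in the HKO-labelled library, with intervals above 1.5. With nuclei thinned to 1000 UMIs, *Gsta2* kept 13 and 15 UMIs and its ratio was 1.51 (0.670 to 3.45). Summed with their near copies Gm3776 and Gm10639, they gave 3.28 and 8.65 CPM (ratio 2.63, 2.14 to 3.25). This sum does not recover reads that could not be given to a single gene.

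The mu-class members *Gstm1*, *Gstm2* and *Gstm3* were each higher in the HKO-labelled library. *Gstm1*, the most abundant of them, stood at 41.4 CPM (39.6 to 43.3) and 85.5 CPM (82.1 to 89.0), with a ratio of 2.06 (1.94 to 2.19). *Gstm3* had 78 UMIs (1.69 CPM) in the Flox-labelled library and 210 UMIs (7.60 CPM) in the HKO-labelled one. Its ratio of 4.51 (3.46 to 5.93) was the largest among the 10 members. *Gstm2* had 187 UMIs (4.04 CPM) and 174 UMIs (6.30 CPM). The ratio was 1.56 (1.26 to 1.93), an interval that includes 1.5. The reading frames of *Gstm1* and *Gstm3* were 89.5% identical, but no 90-base window near their 3′ ends was shared.

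*Gstp1* encodes the pi-class enzyme, which is known to be more abundant in male than in female mouse liver. It was the only member lower in the HKO-labelled library, at 30.4 CPM (28.9 to 32.1) in the Flox-labelled library and 15.7 CPM (14.3 to 17.3) in the HKO-labelled one (ratio 0.517, 0.463 to 0.576). Adding the near copy *Gstp2* gave 0.520 (0.468 to 0.578). *Gstt1*, a theta-class enzyme that acts on halogenated methanes, was within 1.5-fold at 26.5 and 34.7 CPM (ratio 1.31, 1.20 to 1.43). *Nqo1* was scarce in both libraries, with 88 UMIs (1.90 CPM) and 86 UMIs (3.11 CPM). Its ratio of 1.64 (1.20 to 2.23) passed 1.5-fold, with an interval that includes 1.5.

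**Figure D1:**
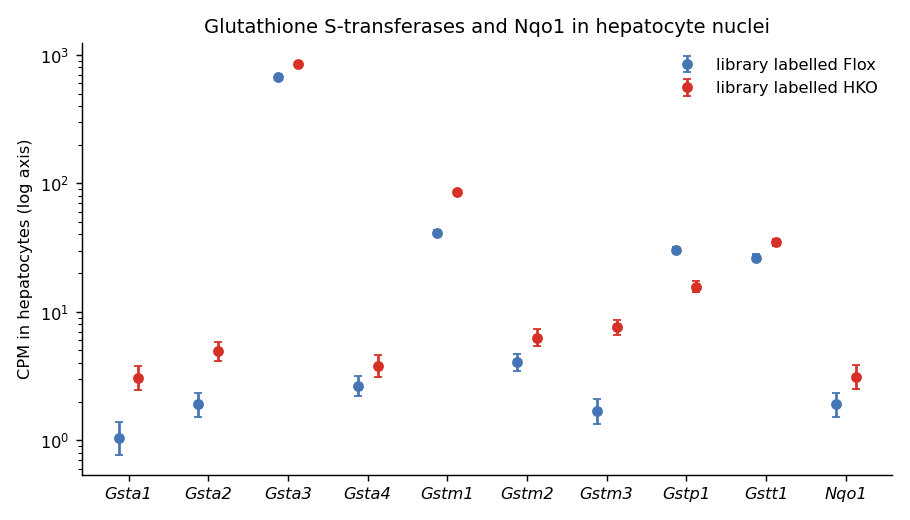
CPM of the 10 members (log axis) in hepatocyte nuclei of the Flox-labelled library (blue) and the HKO-labelled one (red), with exact 95% Poisson intervals where these are wider than the points. *Gsta3* stands far above the others at 669.6 and 855 CPM. In the HKO-labelled library 6 members are at least 1.5-fold higher, against 8.52% of all genes tested. *Gstp1* is lower there, at 15.7 against 30.4 CPM.

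Thus 6 of the 10 members were at least 1.5-fold higher and 1 at least 1.5-fold lower in the HKO-labelled library, and all 10 had at least 100 UMIs over both libraries. Of all 12199 genes with this many UMIs in hepatocytes, 8.52% were at least 1.5-fold higher and 10.8% lower. At 2-fold, 4 members were higher (*Gsta1*, *Gsta2*, *Gstm1* and *Gstm3*) and 0 lower, against 3.28% and 3.38% of all genes. The median log2 ratio of CPM was 0.68 over the members and -0.02 over all genes. The members were chosen with earlier results of these data known, and these shares are a description.

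The question of zonation was addressed by splitting hepatocytes into pericentral nuclei, in which *Glul* and *Slc1a2* together made up at least 0.1% of UMIs, and other nuclei. *Glul* (glutamine synthetase) and *Slc1a2* (a glutamate transporter) mark hepatocytes around the central vein. There were 1092 pericentral nuclei of 5850 in the Flox-labelled library (18.7%, 17.7 to 19.7) and 759 of 4511 in the HKO-labelled one (16.8%, 15.7 to 17.9). Genes not used for the split separated with it. *Oat*, a pericentral enzyme of ornithine metabolism, was 14.4-fold higher in pericentral nuclei of the Flox-labelled library and 18.8-fold in the HKO-labelled one. *Hal*, a periportal enzyme of histidine breakdown, stood at 4.37 CPM in pericentral and 139 CPM in other nuclei of the Flox-labelled library, and at 2.00 and 86.4 CPM in those of the HKO-labelled library.

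*Gstm2* was the member with the strongest pericentral excess. It stood at 12.0 CPM in pericentral and 2.60 CPM in other hepatocytes of the Flox-labelled library (ratio 4.60, 3.41 to 6.20). In the HKO-labelled library the levels were 14.8 and 4.86 CPM (ratio 3.04, 2.18 to 4.19). *Gsta3* was also higher in pericentral hepatocytes of both libraries. Its levels of 1052 and 600.3 CPM gave a ratio of 1.75 (1.71 to 1.80) in the Flox-labelled library, and 1154 and 805 CPM gave 1.43 (1.39 to 1.48) in the HKO-labelled one. For *Gstt1*, the pericentral over other ratio was 1.74 (1.52 to 1.98) in the Flox-labelled library and 1.40 (1.18 to 1.64) in the HKO-labelled one.

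The other mu-class genes showed a smaller pericentral excess. *Gstm1* had ratios of 1.41 (1.26 to 1.58) and 1.24 (1.11 to 1.38) in the Flox- and HKO-labelled libraries. *Gstm3* had 16 pericentral UMIs in the Flox-labelled library, with a ratio of 1.42 (0.767 to 2.50), and 56 in the HKO-labelled one, with a ratio of 2.15 (1.56 to 2.94). The Flox interval for *Gstm3* includes 1, and it overlaps the HKO interval.

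*Gstp1*, *Gsta1* and *Gsta2* had the opposite pattern and were lower in pericentral hepatocytes. *Gstp1* stood at 12.7 CPM in pericentral and 33.7 CPM in other hepatocytes of the Flox-labelled library (ratio 0.377, 0.301 to 0.467). In the HKO-labelled library it stood at 10.0 and 16.7 CPM (ratio 0.600, 0.422 to 0.831). *Gsta1* had 2 pericentral UMIs of 48 in the Flox-labelled library and 3 of 85 in the HKO-labelled one, with ratios of 0.240 (0.0282 to 0.918) and 0.217 (0.0438 to 0.656). *Gsta2* had 3 of 88 and 8 of 137, with ratios of 0.195 (0.0394 to 0.589) and 0.367 (0.155 to 0.746). *Gsta4* and *Nqo1* showed no zone difference that could be detected at this depth: in both libraries their intervals include 1, the widest for *Nqo1* running from 0.416 to 1.64 in the HKO-labelled library and from 0.666 to 2.13 in the Flox-labelled one.

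In the Flox-labelled library, 6 members reached 100 UMIs over both zone classes. Of these, 3 were at least 1.5-fold higher in pericentral nuclei (*Gsta3*, *Gstm2* and *Gstt1*) and 1 lower (*Gstp1*), against 5.16% and 7.45% of all 11508 genes. At 2-fold, 1 was higher (*Gstm2*) and 1 lower (*Gstp1*), against 2.21% and 3.65% of all genes. In the HKO-labelled library, 8 members reached it, with 2 higher (*Gstm2* and *Gstm3*) and 2 lower (*Gsta2* and *Gstp1*), against 4.41% and 7.3% of all 10738 genes. At 2-fold, 2 were higher and 1 lower (*Gsta2*), against 1.9% and 3.05%.

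**Figure D2:**
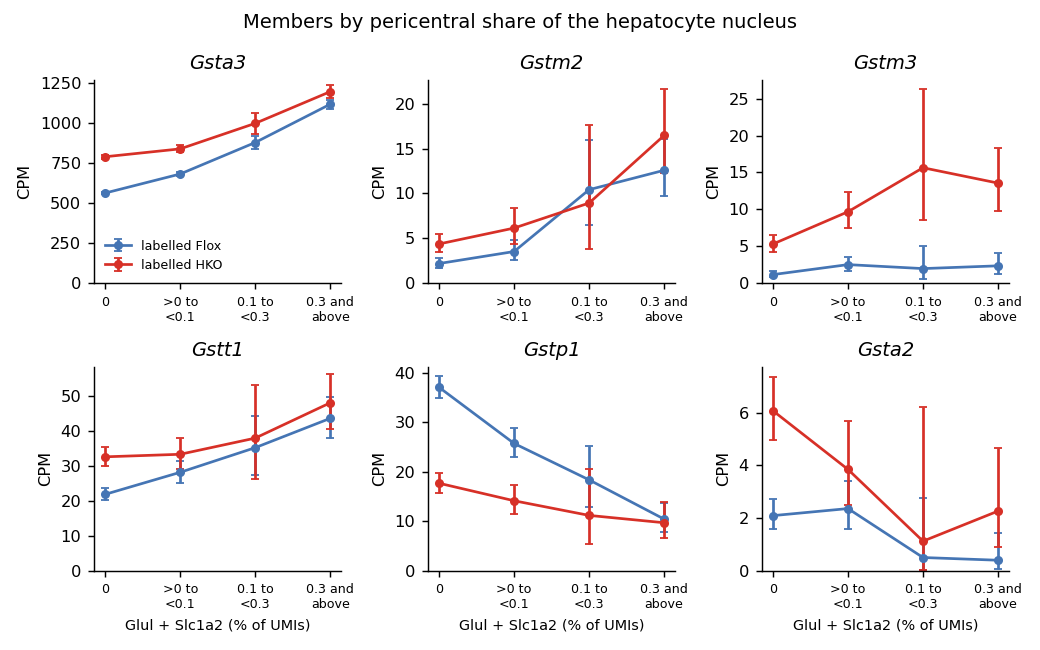
CPM of 6 members in hepatocytes binned by the share of *Glul* and *Slc1a2* in the UMIs of the nucleus (0, under 0.1%, 0.1 to under 0.3%, and 0.3% and above), with 95% Poisson intervals, for the libraries labelled Flox (blue) and HKO (red). *Gsta3* climbs from 564 to 1120 CPM in the Flox-labelled library, whereas *Gstp1* descends from 37.1 to 10.4 CPM, next to the 9.69 CPM of the HKO-labelled library in the highest bin.

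Across 4 bins of this share the levels of *Gsta3* in the Flox-labelled library were 564, 683, 880.2 and 1120 CPM, and those in the HKO-labelled library were 791, 840.4, 1000 and 1198 CPM. The levels increased at each step in both libraries, and the intervals of neighbouring bins did not overlap. *Gstp1* decreased at each step, through 37.1, 25.7, 18.4 and 10.4 CPM in the Flox-labelled library and through 17.7, 14.1, 11.2 and 9.69 CPM in the HKO-labelled one. Its intervals in neighbouring bins overlapped throughout in the HKO-labelled library, where the bin at 11.2 CPM held 10 UMIs. In the Flox-labelled library only those at 37.1 and 25.7 CPM did not overlap. Between the libraries *Gstp1* differed beyond counting error in the bins without or with little pericentral RNA, and its intervals overlapped in the other bins.

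A further split of the non-pericentral hepatocytes, like these bins chosen after the data had been seen, showed the highest *Gstp1* level of the Flox-labelled library in periportal nuclei. Nuclei with at least 0.1% of UMIs from the periportal genes *Cyp2f2*, *Hal*, *Gls2* and *Sds* made up 27.6% of hepatocytes in the Flox-labelled library and 19.1% in the HKO-labelled one. *Gstp1* stood at 50.6 CPM in periportal nuclei and 26.5 CPM in nuclei of neither class in the Flox-labelled library (ratio 1.91, 1.71 to 2.13). In the HKO-labelled library it stood at 18.0 and 16.3 CPM (ratio 1.10, 0.873 to 1.39). *Gstt1* was lower in periportal nuclei of the Flox-labelled library, at 14.8 against 27.6 CPM, and stood at 28.8 against 34.1 CPM in the HKO-labelled one. Of the 4 members with at least 100 UMIs in periportal nuclei, *Gsta3* (ratio of the libraries 1.53, 1.47 to 1.59), *Gstm1* (1.71, 1.47 to 1.99) and *Gstt1* (1.95, 1.57 to 2.43) were at least 1.5-fold higher in the HKO-labelled library. *Gstp1* was lower (0.356, 0.286 to 0.439). Of all 9955 genes tested in these nuclei, 5.35% were higher and 11.1% lower.

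The library ratios were next taken within each zone class, which removes the share of pericentral nuclei from the comparison. The other class still held periportal nuclei in unlike shares, 27.6% of hepatocytes in the Flox-labelled library and 19.1% in the HKO-labelled one. In pericentral hepatocytes 5 members reached 100 UMIs, of which *Gstm1* was at least 1.5-fold higher in the HKO-labelled library, with 55.1 and 102 CPM and a ratio of 1.86 (1.61 to 2.14), and 0 were lower. Of all 8975 genes tested there, 6.82% were higher and 10.1% lower. At 2-fold there were 0 members in either direction, against 1.75% and 2.45% of genes. *Gsta3* had a pericentral ratio of 1.10 (1.06 to 1.14), *Gstt1* of 1.11 (0.918 to 1.34), *Gstm2* of 1.23 (0.870 to 1.74) and *Gstp1* of 0.790 (0.531 to 1.16). With nuclei thinned to 1000 UMIs, *Gstp1* kept 13 and 3 pericentral UMIs and its ratio was 0.335 (0.0613 to 1.22). *Gstm3*, with 16 and 56 pericentral UMIs, had a ratio of 6.22 (3.52 to 11.6).

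In the other hepatocytes all 10 members reached 100 UMIs, and 6 were higher and 1 lower, against 8.49% and 10.6% of all 11955 genes. At 2-fold, 4 were higher and 1 lower, against 3.22% and 3.25%. Here the ratio was 1.34 (1.32 to 1.37) for *Gsta3*, 1.38 (1.25 to 1.52) for *Gstt1*, 1.87 (1.42 to 2.46) for *Gstm2* and 0.496 (0.443 to 0.556) for *Gstp1*. For *Gsta3* this interval and the pericentral one did not overlap. *Gstm1* had 38.9 and 82.7 CPM (ratio 2.12, 1.99 to 2.27), and *Gstm3* a ratio of 4.12 (3.05 to 5.62), so that both were more than 1.5-fold higher in either class.

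**Figure D3:**
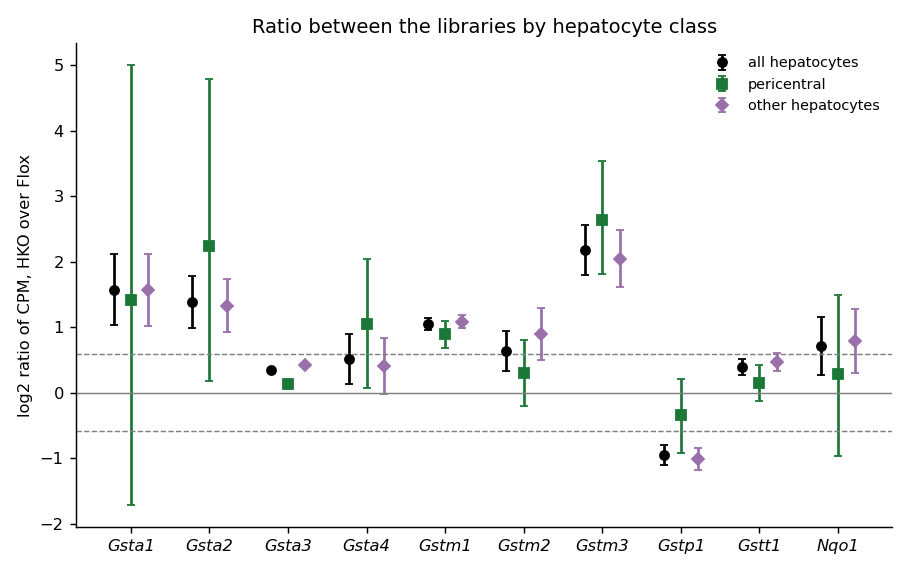
Log2 ratio of CPM, HKO over Flox, for the 10 members in all hepatocytes (black), pericentral (green) and other hepatocytes (purple), with exact 95% counting intervals and dashed lines at 1.5-fold. *Gstm1* and *Gstm3* lie above the upper line in all 3 classes, and *Gstp1* lies below the lower line in all and in other hepatocytes but not in pericentral ones, where its value at full depth is -0.34 and that after thinning -1.58 (not drawn).

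The members differed in how their UMIs were spread over nuclei. At full depth *Gsta3* was detected in 92.8% and 92.7% of hepatocytes and *Gstm1* in 24.1% and 31.4%, while *Gsta1*, *Gsta2*, *Gsta4*, *Gstm2*, *Gstm3* and *Nqo1* were each detected in under 4% of nuclei. Thinned to 1000 UMIs per nucleus, for which 5827 Flox-labelled and 4454 HKO-labelled hepatocytes were deep enough, *Gsta3* was detected in 45.6% (44.3 to 46.9) and 55.5% (54.0 to 56.9) of hepatocytes. In endothelial nuclei, whose median depths were 1329.5 and 970 UMIs, the same shares were 4.50% and 3.66%. They rest on the nuclei deep enough for thinning, 644 of 746 Flox-labelled and 546 of 1207 HKO-labelled ones. *Gstm1* reached 31 UMIs in single nuclei although most hepatocytes had none, whereas *Gsta3*, with up to 36, was detected nearly throughout. Nuclei with at least 5 *Gstm1* UMIs numbered 17 in the Flox-labelled library and 67 in the HKO-labelled one, and they held 7.36% and 20.4% of its UMIs. Without them the levels were 38.5 and 69.2 CPM and the ratio 1.80, still above 1.5-fold.

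*Gstm1* was found more often in nuclei with another mu-class transcript. It was detected in 42.7% of the 75 *Gstm3*-positive and 23.9% of the *Gstm3*-negative hepatocytes of the Flox-labelled library, and in 58.0% of 174 and 30.3% of the others in the HKO-labelled one. The median depths of positive and negative nuclei were 8879 and 7431 UMIs in the Flox-labelled library and 6153.5 and 5800 UMIs in the HKO-labelled one, and the part of depth in these shares was not tested. *Gsta1* was detected in 4 of 82 and 11 of 124 *Gsta2*-positive nuclei (4.88% and 8.87%), against 0.711% and 1.46% of negative ones. Reads in windows shared between the copies cannot be given to a single gene, and their part in these shares was not tested.

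The study describes disease-associated hepatocytes (daHep) with transcripts of *Nrg1*, *Anxa2*, *Gdf15*, *Sox4*, *Klf6* and *Jun*, and the members were therefore compared between hepatocytes with and without such transcripts, a split added after the data had been seen. Hepatocytes with at least 2 of these 6 genes detected after thinning made up 2.09% (122 nuclei) in the Flox-labelled library and 5.23% (233 nuclei) in the HKO-labelled one. *Gstm1* was higher in them, at 61.8 against 40.9 CPM in the Flox-labelled library (ratio 1.51, 1.15 to 1.95), and at 150.3 against 81.5 CPM in the HKO-labelled one (ratio 1.84, 1.59 to 2.13). *Gstm3* had 5 and 24 UMIs in these nuclei, with ratios of 3.14 (0.991 to 7.68) and 2.51 (1.57 to 3.85). *Gsta3* was lower in them in both libraries, with ratios of 0.823 (0.755 to 0.896) and 0.724 (0.675 to 0.775). *Gstp1* showed ratios of 0.930 (0.616 to 1.35) and 1.12 (0.711 to 1.69), both including 1. The intervals do not cover the spread between nuclei, which was wide for *Gstm1*, with up to 31 UMIs in 1 Flox-labelled hepatocyte.

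Hepatocytes with fewer than 2 daHep genes were 5705 of 5827 nuclei in the Flox-labelled library and 4221 of 4454 in the HKO-labelled one. Being nearly all hepatocytes, they had to give library ratios close to those of all hepatocytes. These ratios were 1.99 (1.87 to 2.12) for *Gstm1*, 4.33 (3.28 to 5.76) for *Gstm3* and 0.511 (0.457 to 0.572) for *Gstp1*. In hepatocytes with at least 2 daHep genes they were 2.43 (1.82 to 3.29), 3.45 (1.29 to 11.6) and 0.617 (0.342 to 1.10). Nuclei with fewer than 2 daHep genes may still carry daHep transcripts, since detection was read at 1000 UMIs. The part of these transcripts in the library ratios was not tested.

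Expression in other cell types was read against free hepatocyte RNA, which adds UMIs to every nucleus of a droplet library. As a reference, 10 abundant hepatocyte transcripts of secreted or lipid-binding proteins, such as *Alb*, *Apoa1* and *Ttr*, were each expressed as a share of their hepatocyte CPM. A member was taken to stand above free RNA in a type where it had at least 10 UMIs and a share above the highest of these 10 genes. Among the pairs of a member and 1 of 5 non-hepatocyte types, 4 met this rule in both libraries: *Gstm1*, *Gstm2* and *Gstt1* in HSCs, and *Gstm1* in endothelial cells.

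HSCs, the retinoid-storing cells that make collagen in fibrosis, numbered 768 and 1098 nuclei. *Gstt1* stood at 39.1 CPM (29.6 to 50.6) in HSCs of the Flox-labelled library and 27.6 CPM (20.2 to 36.8) in those of the HKO-labelled library. These were 148% and 79.4% of its hepatocyte level, where the reference genes reached at most 41.5% and 38.7%. *Gstm2* stood at 16.5 CPM (24 UMIs) and 12.6 CPM (21 UMIs) in HSCs, which was 407% and 199.8% of its level over all hepatocytes. *Gstm1* stood at 50.7 and 44.3 CPM, or 123% and 51.8%. Pericentral hepatocytes alone held 12.0 and 14.8 CPM of *Gstm2*, with intervals that overlap those in HSCs. They held 41.3 and 45.8 CPM of *Gstt1* and 55.1 and 102 CPM of *Gstm1*. The library ratios in HSCs were 0.705 (0.467 to 1.06) for *Gstt1*, 0.764 (0.405 to 1.43) for *Gstm2* and 0.874 (0.624 to 1.22) for *Gstm1*, with no difference detectable at these counts. For *Gstm1* and *Gstt1* these intervals lie below those of the same ratio in hepatocytes.

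In endothelial cells *Gstm1* stood at 52.8 and 69.1 CPM, or 128% and 80.8% of its hepatocyte level, where the reference genes reached at most 62.6% and 65.6%. *Gstm2* was above the reference in endothelial cells of the Flox-labelled library, with 20 UMIs (18.5 CPM), and had 7 UMIs (5.56 CPM) in the HKO-labelled one (ratio 0.30, 0.107 to 0.739). *Gstt1*, in contrast to HSCs, stood at 4.63 and 5.56 CPM in endothelial cells and at 4.66 and 5.29 CPM in macrophages, within or under the reference range in both libraries. *Gstm1* in macrophages stood above the reference in the Flox-labelled library, at 38.1 CPM, and within it in the HKO-labelled one, at 34.1 CPM. *Gstt1* in cholangiocytes was above the reference in the HKO-labelled library alone, with 13 UMIs, against 3 in the Flox-labelled one.

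*Gsta3* was largely held to hepatocytes. Its level elsewhere was between 3.26% and 12.5% of that in hepatocytes, under the lowest of the 10 reference genes in each of 5 types and both libraries. Between the libraries its HSC level was 26.7 and 28.8 CPM and its macrophage level 31.1 and 30.8 CPM. *Gstp1* had between 1 and 14 UMIs in any non-hepatocyte type and met the rule in none of them. Its HSC counts were 11 and 1 UMIs (ratio 0.0794, 0.00184 to 0.546) and its macrophage counts 14 and 6 (ratio 0.265, 0.0835 to 0.734), so that it was lower in the HKO-labelled library in types where its UMIs were within or under the free RNA range. *Gsta1*, *Gsta2*, *Gsta4*, *Gstm3* and *Nqo1* had at most 6 UMIs in any such type, too few to separate expression from free RNA. Macrophages held 0 *Nqo1* UMIs in both libraries, a bound of 2.33 and 1.44 CPM, and HSCs held 1 and 2.

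**Figure D4:**
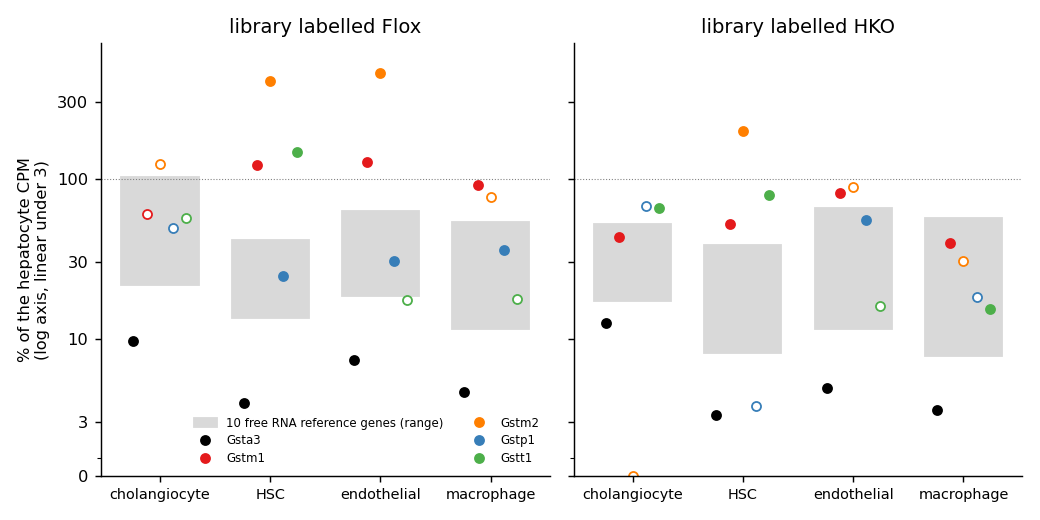
Level of 5 members in 4 non-hepatocyte types as a percentage of their hepatocyte CPM (log axis, linear below 3%), beside the range of 10 free RNA reference genes (grey), with open points for fewer than 10 UMIs. *Gstm2* and *Gstt1* stand above the grey range in HSCs at 407% and 148% in the Flox-labelled library, while *Gsta3* lies below it in each type.

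The other GST genes were then examined in hepatocytes by the same measure. Of 22 further genes of the family and its microsomal relatives, 20 were in the tables and 13 had at least 100 UMIs. Of these 13, 1 was higher, 2 were lower and 10 were within 1.5-fold, against 8.52% higher and 10.8% lower among all genes. Their median log2 ratio was -0.12. *Mgst3*, a microsomal enzyme, was higher, with 117 UMIs (2.53 CPM) and 191 UMIs (6.91 CPM), with a ratio of 2.73 (2.16 to 3.47). *Mgst1*, the abundant microsomal GST, was lower at 947 and 619 CPM (ratio 0.654, 0.642 to 0.665), and the kappa-class *Gstk1* at 20.2 and 12.9 CPM (ratio 0.641, 0.566 to 0.725). *Gstt2* stood at 251 CPM in both libraries. *Gstz1*, which isomerizes maleylacetoacetate in tyrosine breakdown, stood at 465 and 419 CPM.

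The remaining 8 had log2 ratios between -0.38 and 0.20. They were 0.11 for *Gstm4*, -0.12 for *Gstm6* and -0.20 for *Gstm7*, neighbours of *Gstm1* and *Gstm3*. For *Gstp3* the log2 ratio was 0.20, for *Gstt3* -0.22, for the omega-class *Gsto1* -0.03, for *Gstcd* 0.18 and for *Hpgds*, a prostaglandin D synthase, -0.38. The excess of the mu-class members in the HKO-labelled library was thus not shared by all genes of the mu cluster. No theta-class gene with at least 100 UMIs passed 1.5-fold.

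Glutathione synthesis and use was covered by 18 genes with at least 100 UMIs, with a median log2 ratio of 0.19. Of these, 3 were higher, 2 lower and 13 within 1.5-fold, against 8.52% higher and 10.8% lower among all genes. *Gclc*, the catalytic subunit of the enzyme that limits glutathione synthesis, was higher at 213 and 362 CPM, a log2 ratio of 0.77, and *Abcc4*, an efflux pump, had 20 and 145 UMIs and a log2 ratio of 3.60. At the other end stood *Gpx1*, a glutathione peroxidase, at -0.86 and *Chac2*, which breaks glutathione down, at -0.74. Among 22 NRF2 targets 8 were higher and 0 lower, with a median of 0.33. *Abcc4* and *Aox1* had the highest log2 ratios (3.60 and 1.22), and the ferritin genes *Ftl1* and *Fth1* the lowest (-0.58 and -0.56). *Gclc* and *Abcc4* count in both lists. Read against the background of 8.52% higher among all genes, the share of NRF2 targets that were higher is a description of this list and not a test of the pathway.

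Receptor targets and regulators were mixed. Of 13 CAR and PXR targets 6 were higher and 3 lower, against 8.52% and 10.8% of all genes. Highest were *Cyp2a4* (2 and 639 UMIs, a ratio of 535 with an interval of 148 to 4429) and *Cyp2b9* (log2 ratio 3.90). *Ugt1a1* (-0.74) and *Cyp2c29* (-0.70) stood at the other end. *Cyp2a4*, *Cyp2b9* and *Cyp2b13*, all higher, count again among the female-predominant genes below. *Cyp2a4* has the near copy *Cyp2a5*, and its counts are uncertain. Of 4 AhR targets 0 were higher and 1 was lower, *Cyp1a2* at -0.99, with *Ugt1a6a* at -0.07, *Tiparp* at 0.19 and *Nfe2l2* at 0.46. None of 12 regulators passed 1.5-fold in either direction, the highest log2 ratios being 0.48 for *Arnt* and 0.46 for *Nfe2l2*, which encodes NRF2, and the lowest -0.33 for *Nr1i3*, which encodes CAR, and -0.20 for *Bach1*.

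Genes that differ between the sexes in mouse liver also differed between the libraries, and *Gstp1* belongs with the male-predominant ones by background knowledge. Of 10 male-predominant genes 9 were lower in the HKO-labelled library, against 10.8% of all genes. Their log2 ratios ran from -7.52 (*Hsd3b5*) and -6.63 (*Mup7*) to -1.30 (*Cyp7b1*), and *Mup20* stood at -0.52. All 5 female-predominant genes with enough UMIs were higher, against 8.52% of all genes. *Cyp2a4* and *Cyp2b9* are given above, *Cyp2c38* stood at 2.12 and *Acot3* at 0.73. The Y-linked *Ddx3y*, *Uty*, *Kdm5d* and *Eif2s3y* stood between 113 and 189 CPM in both libraries, with log2 ratios of 0.11 for *Eif2s3y*, 0.22 for *Kdm5d* and 0.37 for *Ddx3y*, while *Xist* had 51 and 58 UMIs (log2 ratio 0.93). The part of sex-dependent expression in the *Gstp1* difference was not tested.

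Further gene groups are given as measured, beside 8.52% higher and 10.8% lower among all genes. The 10 free RNA reference genes had a median log2 ratio of -0.41, with 3 lower and 0 higher. Of 6 daHep genes 4 were higher, with *Sox4* at 3.47 and *Nrg1* at 2.61, and with *Jun* at 0.55 and *Gdf15* at -0.32. Of 8 pericentral genes 3 were lower, *Cyp1a2* at -0.99 and *Rgn* at -0.91 among them, and *Tbx3* (0.38) and *Axin2* (0.12) stood highest. Of 7 periportal genes 2 were lower, *Hal* at -0.68 and *Cyp2f2* at -0.66, and *Hsd17b13* (0.56) and *Sds* (0.44) stood highest. Their part in the GST differences was not tested.

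**Figure D5:**
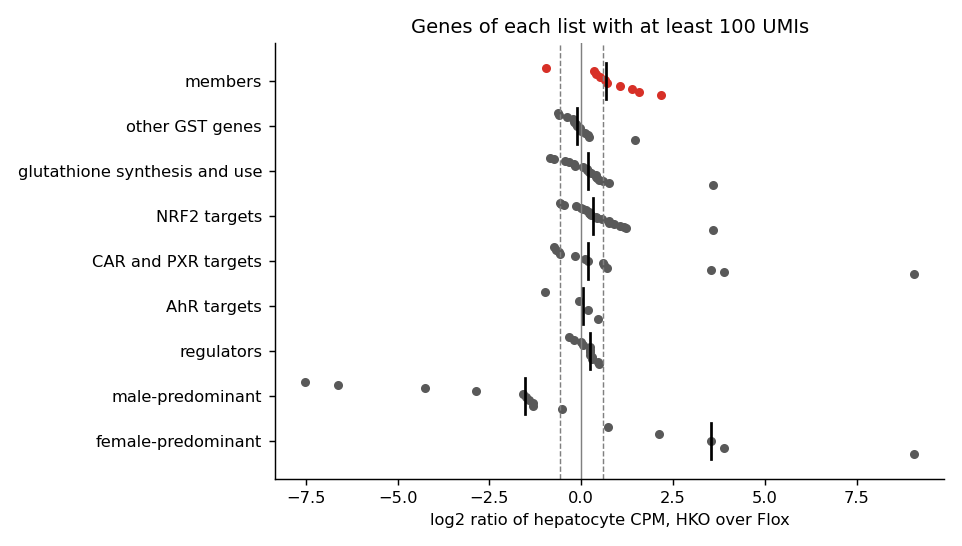
Log2 ratio of hepatocyte CPM, HKO over Flox, for genes with at least 100 UMIs in each list (1 point a gene), with the list median as a black bar and dashed lines at 1.5-fold. The members (red) have a median of 0.68 and 1 gene below the lower line, other GST genes a median of -0.12, and the male- and female-predominant genes spread to -7.52 and 9.06.

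The genes whose levels followed each member most closely were sought over 12 points, 6 cell types in each of 2 libraries, by Pearson's r of log2(CPM + 1) among 10712 genes with at least 500 UMIs. The points share libraries, depth and free RNA, and 12 points are few, so the order describes these data only. For *Gsta3* they were *Dpyd* (r = 0.98), *Abcc2* (0.97) and *Etfdh* (0.97), all expressed in hepatocytes. For *Gstt1* they were *C2* (0.95), *Megf9* (0.94) and *Zfp976* (0.93), and for *Gstp1* they were *Ptpmt1* (0.90), *Grpel1* (0.88) and *Serpina1c* (0.88). For *Gstm1* they were *Pde4c* (0.85), *Lrig3* (0.84) and Gm12758 (0.83).

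The scarcer members gave r values of the same size, although they rest on few UMIs. They were *Cyp2a22* (0.86), *Ugt1a6b* (0.85) and *Fads1* (0.85) for *Gsta1*, and *Zfp1* (0.94), *Cib3* (0.90) and *Etfb* (0.90) for *Gsta2*. For *Gsta4* they included AC166172.1 (0.92) and *Nubpl* (0.91). *Gstm2* was followed by *Tango6* (0.86), *Mbd1* (0.84) and *Slain2* (0.78), and *Gstm3* by *Fkbp5* (0.90), 1700001L05Rik (0.89) and *Csrnp1* (0.89). *Nqo1* was followed by *Tfpi2* (0.94), *Tcim* (0.91) and *Sox13* (0.91).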

How the data were processed

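Per library, the authors deposited a matrix of raw counts (UMIs by gene and barcode) from Cell Ranger 8.0.1 with the mm10 reference (GRCm38) and intronic reads excluded. It held 9363 barcodes and 58171337 UMIs (Flox-labelled) or 10748 barcodes and 40475938 UMIs (HKO-labelled), with medians of 6216 and 2227.5 UMIs. The library titled WT has the genotype *Themis* flox/flox in its labels and was taken as Flox.

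Nuclei with at least 300 detected genes were kept. Scrublet (scanpy 1.11.5, 30 components, 0.8% per 1000 barcodes) took out 701 and 920 doublets (7.49% and 8.56%). A nucleus was a hepatocyte with at least 0.5% of UMIs from hepatocyte markers and no other list at both 0.2% and 2 UMIs. It was given another type with at least 3 UMIs of at least 2 markers that made up 0.2% of UMIs and 2 times the next list. These limits were set after the marker distributions had been seen, without the members, and left 401 and 908 nuclei (4.63% and 9.26%) untyped.

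UMIs were summed per type and divided by their total as CPM. Intervals at the 95% level are exact Poisson (CPM), exact conditional binomial (ratios) and Clopper-Pearson (shares). They cover counting error only, not the spread between nuclei, mice or preparations, and a count of 0 was bounded by 3 counts. Calls were past 1.5-fold among genes with at least 100 UMIs. The script was tested on simulated counts. Alternatives used factors from edgeR 4.0.16 (TMM) and DESeq2 1.42.0 for scaling alone. The members and lists were chosen with earlier results of these data known. Named genes were all members, each other GST gene with at least 100 UMIs, the 2 highest and 2 lowest of each list, and the 3 genes most like each member, of which 1 is not reported here. *Oat*, *Gls2*, *Alb*, *Apoa1*, *Ttr*, *Uty*, *Cyp2a5* and *Cyp2b13* were named beyond this rule, as checks or background.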

Additional observations from a re-analysis of the deposited data

How the results depend on the processing

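No paired analysis was possible because each genotype had 1 library, and no replicate could be left out for the same reason. The log2 ratio of each member between the libraries kept its sign in hepatocytes under all alternatives run (7 or 8 per member), namely other doublet, depth, clustering and scaling choices, and the summing of near-identical genes. *Gsta4* in pericentral hepatocytes reversed to -0.46 when nuclei were thinned to 1000 UMIs, which leaves fewer UMIs. Thinning also moved the log2 ratio of *Gsta2* from 1.38 to 0.59 in hepatocytes and from 1.33 to 0.36 in other hepatocytes, that of *Gstm2* in other hepatocytes from 0.90 to 1.77, and that of *Gstp1* in pericentral hepatocytes from -0.34 to -1.58. Between zones of the HKO-labelled library it moved *Gsta2* from -1.45 to -0.39 and *Gstp1* from -0.74 to -1.91. Between zones, *Nqo1* in both libraries and *Gsta4* in the HKO-labelled library changed sign under 1 of 8 alternatives each.

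Counts of members depended on how many UMIs were asked for. In hepatocytes and in other hepatocytes, 1 member was higher in place of 6 with thinning or with at least 500 UMIs, since 4 members then reached the limit. At 2-fold 0 were lower in hepatocytes in place of 1, and 0 higher in pericentral ones in place of 1. With 20 UMIs, 3 were higher in pericentral hepatocytes. In the classes added after seeing the data, 3 of 4 members tested were higher and 1 lower in periportal nuclei, and 1 of 5 higher and 0 lower in pericentral ones. Between zones in the Flox-labelled library, 2 were lower without doublet removal and 3 with 20 UMIs in place of 1, and 1 was higher at 2-fold in place of 3. In the HKO-labelled library, 0 were higher and 0 lower with thinning or 500 UMIs in place of 2 and 2, and 1 was lower at 2-fold.

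Among the lists, 3 other GST genes were higher with 20 UMIs in place of 1, and a pseudocount of 10 CPM left 0 higher and 1 lower. The same pseudocount left 1 higher and 1 lower for glutathione genes and 5 higher for NRF2 targets, of which 1 was lower with TMM factors or 20 UMIs. The number of pairs of member and cell type above free RNA, 4 in the main setting, changed by no more than 1.5 times under the alternatives. This number does not show whether the same pairs were kept. Depth limits most the members with under 250 UMIs.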
